A study of Homo sapiens with 2 samples.

Results

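The EGR, IER and NR4A genes are immediate early genes, which cells transcribe within minutes of a stimulus such as serum or a growth factor, without new protein synthesis. The 10 members examined here were EGR1, EGR2, EGR3, EGR4, IER2, IER3, IER5, NR4A1, NR4A2 and NR4A3, out of 19198 genes in the deposited tables. They were picked by gene symbol, as immediate early genes outside the AP-1 family, and were chosen with the log2 fold changes of this same contrast in view, so that their differences between the libraries are a description and are not tested. RNA was taken from cells labelled A549, a human line established from a lung adenocarcinoma. One library came from cells transduced to overexpress NICD1 (A549-NICD1), the part of NOTCH1 that active receptors release into the cell, and 1 library came from cells carrying the vector control (A549-Vector). Both were kept in DMEM with fetal bovine serum, and the insert was carried by a pSin-EF2 lentiviral vector with antibiotic resistance. With 1 library per condition, no difference has a replicate check, and each interval covers counting error only. Since whole cultures were sequenced, more cells with a transcript and more transcript per cell cannot be told apart.

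The EGR proteins are zinc finger transcription factors that bind GC-rich sites and are held in check by the corepressors NAB1 and NAB2. The NR4A proteins are orphan nuclear receptors that bind DNA alone or with a retinoid X receptor, and IER2 and IER5 are related nuclear proteins, while IER3 is unrelated to them and known for its part in survival signalling. Most of these genes are switched on through ERK, which phosphorylates ternary complex factors that sit beside the serum response factor SRF on a CArG box, and through CREB on a cyclic AMP response element (CRE). NICD1 acts through RBPJ, a DNA-binding protein that turns on the HES and HEY genes.

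The deposited values behaved as FPKM, that is, reads per kilobase of gene and scaled to the size of the library, and whole reads could be recovered from them at a depth of 48528434 reads for A549-NICD1 and 48602848 reads for A549-Vector. NOTCH1 was at 2865 FPKM in A549-NICD1 and 5.40 FPKM in A549-Vector, in the direction of the labels, and RFC4 was at 4075 and 39.5 FPKM. In A549-NICD1, RFC4 was at rank 1 of all genes and NOTCH1 at rank 3. Since both were high in the same library, their parts in any difference below cannot be told apart, and neither was tested. The cell line label was met only in part. Of 16 A549 markers, 7 reached 1 FPKM in each library, among them KRT8 at 176 and 85.9 FPKM, KRT18 at 130 and 73.1 FPKM and ANXA2 at 112 and 112 FPKM. Another 8 were under 1 FPKM in both, with KRT7, FGA and FGB listed at 0 and AKR1B10 at 0.0129 and 0.0258 FPKM. Of 9 markers of HEK293, a human embryonic kidney line, 7 reached 1 FPKM in each library and 2 were under it in both. CDKN2A, whose locus is known to be deleted in A549, was at 138 FPKM in A549-NICD1 and 139 FPKM in A549-Vector. The names A549-NICD1 and A549-Vector are therefore used below as labels only.

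RefSeq promoter windows on GRCh38.p14, running from 250 bases before a transcription start to 50 bases after it, were matched by symbol for 7 of the 10 genes, in 10 windows, and not for EGR3, IER3 and NR4A2. The windows of EGR1 and EGR2 are shown because they hold the CArG boxes. That of IER5 is shown because IER5 had the largest fold outside the EGR family and its window matched no motif as searched. Each is printed 5' to 3' on the gene's strand for the 250 bases before the start, with matches to a CArG box, the CRE core or the RBPJ core in capitals.
EGR1, chr5:138465229-138465478, plus strand: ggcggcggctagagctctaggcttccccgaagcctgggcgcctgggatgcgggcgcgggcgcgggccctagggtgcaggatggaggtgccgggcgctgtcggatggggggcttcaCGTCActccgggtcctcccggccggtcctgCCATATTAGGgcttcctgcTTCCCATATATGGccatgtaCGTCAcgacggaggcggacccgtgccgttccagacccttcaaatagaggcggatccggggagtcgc
EGR2, chr10:62816367-62816616, minus strand: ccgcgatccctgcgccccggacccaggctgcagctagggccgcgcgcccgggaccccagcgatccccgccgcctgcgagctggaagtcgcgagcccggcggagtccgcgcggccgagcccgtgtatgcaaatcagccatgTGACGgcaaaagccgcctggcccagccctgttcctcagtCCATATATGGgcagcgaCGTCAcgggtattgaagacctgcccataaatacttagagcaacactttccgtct
IER5, chr1:181088450-181088699, plus strand: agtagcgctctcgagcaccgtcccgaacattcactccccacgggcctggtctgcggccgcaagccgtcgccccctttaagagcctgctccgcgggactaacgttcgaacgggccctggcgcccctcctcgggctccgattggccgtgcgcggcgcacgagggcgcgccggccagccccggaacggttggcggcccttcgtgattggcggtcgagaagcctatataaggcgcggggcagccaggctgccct

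Positions are counted back from the start, so that -1 is the last base before it. EGR1 held 2 CArG boxes, at -105 to -96 and at -83 to -74, and EGR2 held 1, at -71 to -62, in the window of the most downstream of its 3 starts. A CArG box was found in 2 of the 10 windows of these genes and in 1.29% of all 35116 promoter windows. The CRE core, TGACG, was found in 5 of the 10 windows, against 24.6% of all windows. EGR1 had it at -135 to -131 and at -66 to -62, EGR2 at -110 to -106 and at -54 to -50, and NR4A3 at 4 places, while EGR4 had it at 2 and IER2 at 1. The whole CRE, TGACGTCA, was in none of the 10 windows and in 1.85% of all windows. The core of the RBPJ site, TGGGAA, was found once in EGR1, on the opposite strand at -86 to -81, where it shares its last bases with the second CArG box, and once in NR4A1, at -133 to -128, against 24.0% of all windows. The EGR sites GCGGGGGCG and GCGTGGGCG were in none of the 10 windows, against 5.07% and 0.795% of all windows. The TATA box was searched only as TATAAA, which was in none of the 10 windows, against 11.5% of all windows. Variants of that string were not searched, and the printed IER5 window holds TATATAAG. No lack of a TATA box is therefore read from this. Both strands were searched, the core is part of the whole CRE, and a match shows only that these letters are present.

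**Figure D1:**
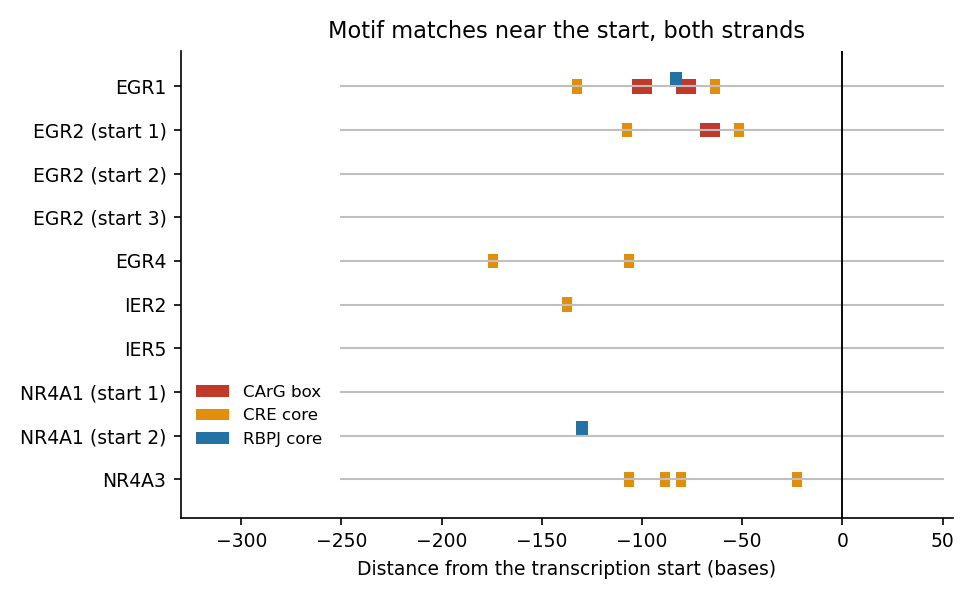
Matches to the CArG box, the CRE core TGACG and the RBPJ core in the 10 promoter windows, by distance in bases from the transcription start, on either strand. Starts of one gene are numbered by coordinate, and a grey line without a block is a window with no match. CArG boxes appear in the windows of EGR1 and of EGR2 start 1 alone.

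Every member had the higher value in A549-NICD1. Of the 10 genes, 9 reached 10 reads in either library, and these 9 did so in both. EGR4 did not, and its values are given apart. Log2 fold changes were computed with 0.5 added to the reads, and with the depth of A549-NICD1 multiplied by 0.964. They were above 0 in 9 of the 9 genes, against 49.5% of the 15314 genes with as many reads. The counting interval lay wholly above 0 in 9 of the 9, against 28.5% of all genes. The log2 fold change was above 1 in 3 of the 9, against 4.38% of all genes, and below -1 in 0 of the 9, against 2.24%. Among the 8 members with 100 or more reads over both libraries, 2 were above 1, against 1.22% of all such genes, and 0 were below -1, against 0.654%. The median over the 9 genes was 0.52, and the median over all 15314 genes was -0.0029. Since the members were picked with this contrast in view, nothing is read from these shares.

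**Figure D2:**
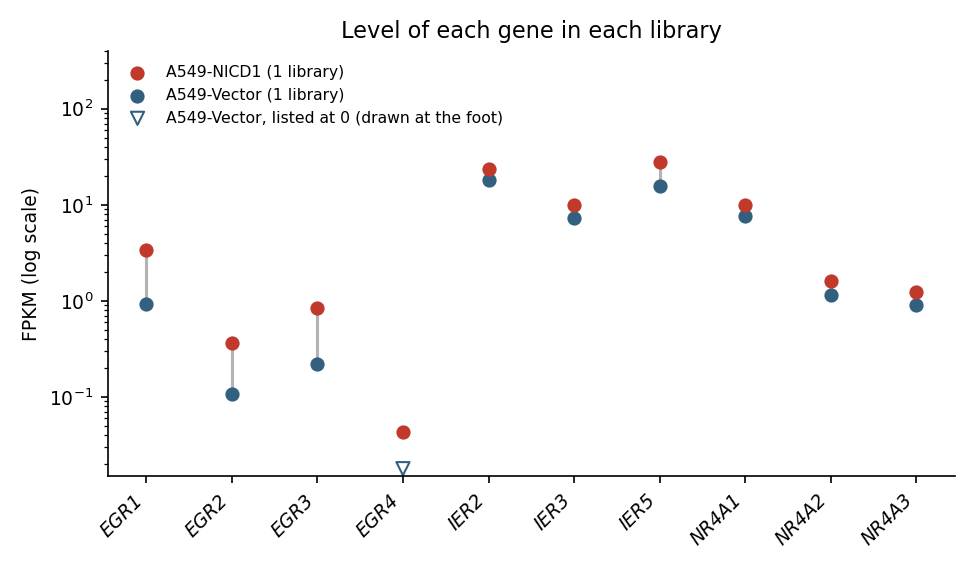
FPKM of each gene, on a log scale, in the A549-NICD1 library (red) and the A549-Vector library (blue), 1 library each. EGR1 was at 3.36 and 0.919 FPKM and IER5 at 27.9 and 15.7 FPKM, and the open triangle marks EGR4, which was listed at 0 in A549-Vector.

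EGR1, EGR2 and EGR3 had the highest log2 fold changes of the 9 genes with enough reads, and EGR2, EGR3 and EGR4 the lowest levels of the 10 genes in both libraries. With 1 FPKM added in place of 0.5 reads, which weighs on low genes, EGR1 stayed first at 1.22, while IER5 at 0.84 came before EGR3 at 0.63 and EGR2 at 0.31. EGR1, the founding member of the family (chr5:138465490-138469315), was at 3.36 FPKM (511 reads) in A549-NICD1 and 0.919 FPKM (140 reads) in A549-Vector. Its log2 fold change was 1.92 (95% Clopper-Pearson interval 1.65 to 2.20), which is 3.78-fold. At 1 FPKM as a mark of low expression, EGR1 lay above it in A549-NICD1 and under it in A549-Vector.

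EGR3, on chromosome 8, which muscle spindles need to form, was at 0.850 FPKM (167 reads) in A549-NICD1 and 0.219 FPKM (43 reads) in A549-Vector. Its log2 fold change was 2.0 (interval 1.52 to 2.53), the highest of the 9 genes with enough reads. EGR2 (chr10:62811996-62919900), which controls myelination in Schwann cells, was at 0.361 FPKM (50 reads) and 0.108 FPKM (15 reads), a log2 fold change of 1.76 (interval 0.94 to 2.73). Both genes stayed under 1 FPKM in both libraries, and the lower end of the EGR2 interval fell short of a log2 fold change of 1.

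EGR4 (chr2:73290929-73293705) had 5 reads in A549-NICD1, 0.0434 FPKM, and was listed at 0 in A549-Vector. A count of 0 allows up to 3 reads, or 0.0260 FPKM, in A549-Vector. The interval of its log2 fold change began at -0.07, so that a difference in EGR4 was not detectable at this depth.

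Summed over the family, the EGR genes were at 4.61 FPKM in A549-NICD1 and 1.25 FPKM in A549-Vector. Their summed reads, 733 and 198, gave a log2 fold change of 1.94 (interval 1.72 to 2.18). The makeup of the family was close in both libraries, with EGR1 at 72.8% of the family FPKM in A549-NICD1 and 73.8% in A549-Vector, EGR3 at 18.4% and 17.5%, and EGR2 at 7.84% and 8.69%.

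The IER genes were the most abundant of the 3 families and differed less. IER5, a single-exon gene induced by growth factors and heat shock (chr1:181088712-181092899), was at 27.9 FPKM in A549-NICD1 and 15.7 FPKM in A549-Vector. Its log2 fold change was 0.88 (interval 0.76 to 1.0), or 1.84-fold. Its reads, 1587 and 894, are the smallest whole numbers its values allow, and with 2 times as many the interval would narrow to 0.80 to 0.97. IER5 was the highest of the 10 genes in A549-NICD1 and second to IER2 in A549-Vector.

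IER2 (chr19:13150415-13154908), a nuclear protein rapidly induced by serum, was at 23.6 FPKM (2349 reads) in A549-NICD1 and 18.1 FPKM (1805 reads) in A549-Vector, a log2 fold change of 0.44 (interval 0.35 to 0.52). IER3 (chr6:30743199-30744554), also known as IEX-1, was at 9.97 FPKM (600 reads) and 7.22 FPKM (435 reads), a log2 fold change of 0.52 (interval 0.34 to 0.70). Antisense transcripts in GENCODE 29 cover 30.8% of the exonic bases of IER2 and 26.5% of those of IER3, and whether the reads of such a pair were told apart is not known, since the study calls its libraries strand-specific but the sources used here do not say whether strand was used in counting.

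The IER family summed to 61.5 FPKM in A549-NICD1 and 41.0 FPKM in A549-Vector. IER5 made up 45.4% of the family FPKM in A549-NICD1 and 38.3% in A549-Vector, and IER2 made up 38.4% and 44.1%. The summed reads, 4536 and 3134, gave a log2 fold change of 0.59 (interval 0.52 to 0.66), with IER5 at its smallest whole numbers. A larger multiple would give IER5 more weight and raise this value, so the interval does not cover that uncertainty. The FPKM totals, which do not depend on the multiple, differed 1.56-fold after scaling. The order of IER2 and IER5 within the family was reversed between the libraries.

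The 3 NR4A genes differed between the libraries by nearly the same factor. NR4A1 (chr12:52022832-52059507), also known as NUR77, was at 9.95 FPKM (1366 reads) in A549-NICD1 and 7.69 FPKM (1058 reads) in A549-Vector, a log2 fold change of 0.42 (interval 0.31 to 0.54). NR4A2 (chr2:156324432-156342348), or NURR1, which dopamine neurons need, was at 1.60 FPKM (274 reads) and 1.15 FPKM (198 reads), a log2 fold change of 0.52 (interval 0.26 to 0.80). NR4A3 (chr9:99821855-99866891), or NOR1, was at 1.25 FPKM (282 reads) and 0.908 FPKM (205 reads), a log2 fold change of 0.51 (interval 0.25 to 0.78). The 3 intervals overlap. NR4A1 held 77.7% of the family FPKM in A549-NICD1 and 78.9% in A549-Vector. An RNA on the opposite strand covers 10.3% of the exonic bases of NR4A1. The family summed to 12.8 FPKM and 9.76 FPKM, and its reads, 1922 and 1461, gave a log2 fold change of 0.45 (interval 0.35 to 0.55).

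**Figure D3:**
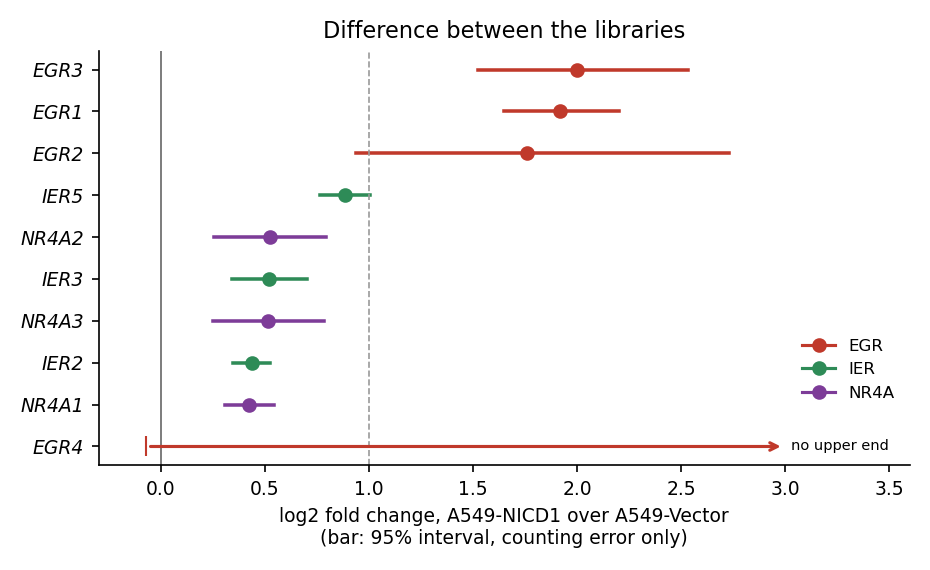
Log2 fold change of A549-NICD1 over A549-Vector for each gene (points) with 95% Clopper-Pearson intervals for counting error (bars), colored by family, with the dashed line at 1. The points of EGR1, EGR2 and EGR3 lie between 1.76 and 2.0 and those of the IER and NR4A genes between 0.42 and 0.88. EGR4 has an interval from -0.07 with no upper end and no point.

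In the order of log2 fold changes, EGR3, EGR1, EGR2, IER5, NR4A2, IER3, NR4A3, IER2 and NR4A1, each gene had an interval that overlapped that of the next, though with 2 times the reads for IER5 its interval would begin just above the upper end of that of NR4A2. Wider steps did separate. The intervals of EGR1 and EGR3 began at 1.65 and 1.52, above the upper end of IER5 at 1.0, and that of EGR2 began at 0.94, above the upper ends of the 3 NR4A genes, of IER2 and of IER3, the highest of which was 0.80 for NR4A2. The difference in FPKM had another order, with IER5 at 12.2, IER2 at 5.50, IER3 at 2.75, EGR1 at 2.44, NR4A1 at 2.26, EGR3 at 0.631, NR4A2 at 0.445, NR4A3 at 0.343 and EGR2 at 0.253 FPKM. All members together took 0.0148% of the depth of A549-NICD1 and 0.00986% of that of A549-Vector, with IER5 at its smallest whole numbers.

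Set among the 15314 genes, 252 genes (1.65%) had a log2 fold change at or above that of EGR3, 267 genes (1.74%) at or above that of EGR1, and 298 (1.95%) at or above that of EGR2. At the lower end of the members, 1546 genes (10.1%) were at or above NR4A1. Among the 13312 genes with 100 or more reads over both libraries, where counting error is smaller, 39 (0.293%) were at or above EGR1 and 193 (1.45%) at or above IER5.

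Most of the other immediate early genes listed had a higher value in A549-NICD1. Of 34 such genes listed, 9 passed a log2 fold change of 1 and 0 passed -1, with a median of 0.55, against 4.38%, 2.24% and a median of -0.0029 for all genes, and 32 of the 34 were above 0, against 49.5% of all genes. The interval lay wholly above 0 in 27 of the 34, against 28.5% of all genes. It lay wholly below 0 in 2, BTG2, an antiproliferative gene, at -0.59 (interval -0.70 to -0.48) and PER1, a circadian clock gene, at -0.11 (interval -0.18 to -0.04). The same background holds for each list below. The 3 with the largest change were ARC, a neuronal plasticity gene, at 1.56 (interval 1.23 to 1.90), DUSP1, a phosphatase that inactivates MAP kinases, at 1.54 (interval 1.46 to 1.64), and PTGS2, the inducible cyclooxygenase, at 1.53 (interval 0.92 to 2.19). Of 8 AP-1 immediate early genes, 2 were above 1 and 0 below -1, with a median of 0.49. The interval lay wholly above 0 in 7 of them and wholly below 0 in 1. ATF3 was at 2.01 (interval 1.92 to 2.11), FOS at 1.18 (interval 0.85 to 1.52) and JUN at 0.95 (interval 0.91 to 0.99). Like the members, these lists and those below were chosen with earlier results of these data known. Nothing is therefore read from their shares.

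Transcripts of the listed serum response, CREB and ERK pathway genes stayed within 0.32 log2 units of no change. Of 12 serum response and CREB regulators, 0 passed a log2 fold change of 1 or of -1, and their median was -0.02. The interval lay wholly above 0 in 5 of them and wholly below 0 in 5. SRF was at 0.26 (interval 0.21 to 0.32), ELK3, a ternary complex factor, at -0.31 (interval -0.39 to -0.22), and MRTFB, an SRF coactivator, at -0.17 (interval -0.24 to -0.10). Of 13 ERK pathway genes, 0 passed either fold, with a median of -0.03 and EGFR, ARAF and RPS6KA3 at -0.32, -0.12 and -0.17. The interval lay wholly above 0 in 3 of these 13 genes and wholly below 0 in 6. The values are transcript levels and do not show the activity of the kinases. SRF is on 2 of the lists, as it is both an immediate early gene and a regulator of them.

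Of 5 partners of the EGR and NR4A proteins, 0 passed either fold and the median was -0.20. RXRG, a retinoid X receptor, was at -0.85 (interval -1.38 to -0.34), from 92 reads in A549-Vector to 49 in A549-NICD1, RXRA was at -0.28 and NAB1 at -0.20. Of 8 EGR targets, 0 passed either fold and the median was 0.34. ID3, an inhibitor of basic helix-loop-helix factors, was at 0.80 (interval 0.74 to 0.85), FLT1, a receptor of vascular endothelial growth factors, at 0.66 (interval 0.58 to 0.74) and THBS1, thrombospondin, at 0.44 (interval 0.06 to 0.84). NAB2 is on both lists.

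Genes of other responses differed between the same 2 libraries. Of 8 Notch targets, 4 were above 1 and 0 below -1, with a median of 1.05, led by HES5 at 3.93, HEYL at 1.74 and HEY2 at 1.60. The other gene above 1 was DTX1, at 1.17 from 31 and 14 reads (interval 0.25 to 2.23). HES1 and HEY1 had the lowest values of the list, 0.26 and 0.50. Of 10 heat shock and endoplasmic reticulum stress genes, 3 were above 1 and 0 below -1, with a median of 0.23. These were HERPUD1, which acts in protein degradation at the endoplasmic reticulum, at 1.46 (interval 1.38 to 1.55), HSPA5, its main chaperone, at 1.12 (interval 1.09 to 1.14), and DDIT3, the stress factor CHOP, at 1.06 (interval 0.82 to 1.30). The interval lay wholly above 0 in 8 of the 10. It lay wholly below 0 in 2 heat shock genes, HSPA1A at -0.28 (interval -0.30 to -0.26) and HSPA1B at -0.13 (interval -0.16 to -0.11). The A549 markers had a median of 0.09, with 1 gene above 1 and 0 below -1 and KRT8, AKR1C1 and KRT18 at 1.09, -1.0 and 0.89. The HEK293 markers had a median of -0.06, with 0 genes past either fold and PAX2, SOX11 and NEFM at -0.72, 0.47 and -0.32. The part of any of these in the values of the EGR, IER and NR4A genes was not tested.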

How the data were processed

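PolyA RNA of 1 A549-NICD1 and 1 A549-Vector culture was extracted with Trizol, made into libraries with a NEBNext Ultra RNA kit and sequenced. The submitters' processing notes name Bowtie2, HTSeq and hg38, and their versions and settings are not given in the sources used here. The authors deposited 1 value per gene and library without naming a unit. The deposited values were read as FPKM, from the values themselves. Rows named by a date number in place of a gene, 27 in all, were not used.

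Whole reads were recovered from the FPKM alone. The 257 genes with equal reads gave the ratio of depths, and the depth was the largest that made gene lengths whole numbers in 80.5% of 200 anchor genes. Whole reads came out for 17025 of 17178 genes above 0, and for 152 more they were approximate. Of the multiples that a gene's values allow, the length nearest a GENCODE 29 transcript within 10% was taken, otherwise the smallest. Recovered reads sum to 109% of the depths. A too large multiple for some genes would give such an excess, but its cause was not tested. The multiple changes intervals and filters, and it changes the folds of summed reads, since it sets the weight of each gene. It enters the fold of a single gene only through the small count added to the reads, which weighs more at low reads. For IER5 the log2 fold change was 0.8832 at its smallest whole numbers and 0.8834 with 2 times as many. Depths were scaled with a trimmed mean of log ratios (30% of ratios and 5% of levels trimmed at each end). Intervals are 95% Clopper-Pearson intervals. Without molecular identifiers, reads are not independent molecules, and intervals and floors cover counting error only.

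The members and all lists were chosen with earlier results of these data known. Text names all members, NOTCH1 and RFC4, and of each list the 3 genes with the largest absolute log2 fold change among those with at least 100 reads summed. AKR1B10, ANXA2, BTG2, CDKN2A, DTX1, FGA, FGB, HES1, HEY1, HSPA1A, HSPA1B, IGF2BP1, KRT7, LIN28B, NAB2, NEFL and PER1 were named after their values were seen. Alternatives covered scaling, pseudocount, filter and promoter window. Of 100-base windows of the members' longest transcripts, taken every 50 bases, 0 were found in another gene. Promoter windows overlapping an annotated exon were not printed. Protein features were planned but not analysed here. Steps were tested on simulated data. Python 3.11.15, numpy 2.4.6, pandas 2.3.3, scipy 1.17.1 and matplotlib 3.10.9 were used.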

Additional observations from a re-analysis of the deposited data

How the results depend on the processing

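Scaling by total reads, by total reads without NOTCH1 and RFC4, by median of ratios size factors or by the upper quartile, and pseudocounts of 5 reads or 0.1 FPKM, left the median log2 fold change of the members between 0.47 and 0.52 and 3 genes above 1. A pseudocount of 1 FPKM lowered that count from 3 to 1 gene, against 0.294% of all genes, with EGR1 at 1.22, EGR3 at 0.63 and EGR2 at 0.31, since 1 FPKM is above every value of EGR2 and EGR3. A minimum mean of 1 FPKM also gave 1 gene above 1, EGR1, out of 7 genes kept, against 0.718% of all genes kept. No filter gave 4 of 10, against 8.82%, and at least 100 reads summed gave 2 of 8, against 1.22%. In all 7 scaling and pseudocount alternatives each of the 10 genes stayed above 0, but these settings could hardly have changed a sign. The scaling factors lay between 0.964 and 1, and an equal pseudocount does not turn a value above 0 into one below it. EGR4, with 5 and 0 reads, stays above 0 at any of them, so nothing is read from its sign. Motif counts were the same in the 250 bases before the start alone.

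No paired analysis was possible because there was 1 library per condition, which also gave no replicate to leave out. Depth limits EGR4, at 5 and 0 reads, and the interval of EGR2, at 50 and 15 reads.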
